A study of Mus musculus with 16 samples.

Results

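The genes described here are the 5 subunits of the transcription factor NF-κB (Nfkb1, Nfkb2, Rel, Rela and Relb) and 5 genes of its feedback control (Nfkbia, Nfkbid, Nfkbiz, Tnfaip3 and Bcl3), chosen by name from the 22114 genes of both deposited count tables. All 10 were found in both tables and all 10 passed the filter on low counts. RNA was sequenced from sorted DN3 thymocytes (CD4-CD8-CD25+CD44-) of mice labelled C57BL/6 (lines backcrossed to C57BL/6J, per the study's methods). The methods give pools of cells from 3 to 5 mice aged 6 weeks, in a passage that describes an array. The study's text calls the RNA-seq samples of the GFP fractions pooled. The first experiment compared GFPhi with GFPlo DN3 cells of H2B-GFP;Lmo2Tg mice, aged 2 months in a supplementary legend of the study. The mice had received doxycycline for 6 weeks and were then chased for 2 weeks, so that cells that divided little kept the H2B-GFP label. In these mice, both fractions carried the Lmo2 transgene. The second compared DN3 cells of 6-week-old wild-type, p21-/- (labelled p21 KO), Lmo2Tg (LMO2-transgenic) and Lmo2Tg;p21-/- (LMO2-p21 KO) mice. The transgene is driven by the CD2 promoter, and p21 is the cell cycle inhibitor encoded by Cdkn1a. There were 3 GFPhi, 3 GFPlo, 3 wild-type, 2 p21-/-, 2 Lmo2Tg and 2 Lmo2Tg;p21-/- libraries.

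NF-κB subunits act as dimers that are held inactive in the cytoplasm by inhibitors of the IκB family until a kinase complex, IKK, marks the inhibitor for destruction. In the canonical branch, Rela and Rel pair with the p50 product of Nfkb1, whereas in the non-canonical branch Relb pairs with the p52 product of Nfkb2. Active NF-κB induces its own inhibitors, among them Nfkbia (IκBα) and Tnfaip3 (A20, a ubiquitin-editing enzyme that switches off signals to IKK). Nfkbiz, Nfkbid and Bcl3 encode IκB-like proteins of the nucleus that modify which target genes p50 and p52 dimers switch on or off. In thymocytes, NF-κB is known to act downstream of the pre-T-cell receptor, which DN3 cells are the first to assemble.

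Total counts ranged from 26861394 to 31106213 in the GFP libraries and from 13864936 to 16837667 in the genotype libraries. Values below are CPM (counts scaled to the library total) after TMM normalization within each table, and levels were not compared between the tables. Cdkn1a, the targeted gene, was at 36.5, 37.5 and 49.0 CPM in the wild-type libraries, at 14.3 and 17.7 CPM in p21-/-, at 32.8 and 26.3 CPM in Lmo2Tg and at 4.35 and 3.50 CPM in Lmo2Tg;p21-/- libraries, so it was lower in each group labelled p21-deficient than in its control. Lmo2 was at most 0.306 CPM in the wild-type and p21-/- libraries, at least 41.4 CPM in the Lmo2Tg and Lmo2Tg;p21-/- libraries and at 29.5 to 285 CPM in the GFP libraries. GFPhi replicate 3 stood apart from both other GFPhi libraries, with 285 CPM of Lmo2 against 53.8 and 29.5 CPM and 6.56 CPM of Cdkn1a against 35.8 and 29.9 CPM, so GFP results are given with and without it. Each of 16 DN3 marker genes had counts in every library. GFP libraries came from independent cohorts of mice per the study's text, which the labels do not tie to replicate numbers. No source used here says this of the genotype replicates, whose p-values measure the spread between these samples.

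Promoters of 7 of the 10 genes (Nfkb2, Rel, Rela, Nfkbia, Nfkbid, Tnfaip3 and Bcl3) were matched in the RefSeq table of build GRCm38.p6, some with several start sites, and the 250 bases before each start were searched on both strands for the 10-base κB consensus, the sequence that NF-κB dimers bind. A match was present for 5 of the 7 genes, all but Rela and Bcl3, against 8.23% of 27025 genes with a promoter in the table and 7.25% of all 32851 promoters. The matches are shown as a description of these windows. All 5 genes that hold one passed the test between Lmo2Tg and wild-type cells below, Nfkb2 as lower. So did 9 of all 10 genes, among them Bcl3, which holds no match, and Nfkb1, Relb and Nfkbiz, which had no promoter to search. A link between the matches and these differences was not tested. Capitals mark the match, or 2 overlapping matches, each sequence reads 5′ to 3′ on the gene's own strand, and the Nfkbia promoter (chr12:55492648-55492897, minus strand) is given whole.

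Nfkbia promoter: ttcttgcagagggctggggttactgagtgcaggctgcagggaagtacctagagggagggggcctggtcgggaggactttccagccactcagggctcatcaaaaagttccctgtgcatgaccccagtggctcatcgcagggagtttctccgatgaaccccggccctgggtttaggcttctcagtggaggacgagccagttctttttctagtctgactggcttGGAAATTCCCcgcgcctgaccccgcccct
Tnfaip3, chr10:19015516-19015545, minus strand: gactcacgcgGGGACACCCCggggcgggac
Tnfaip3, chr10:19015411-19015432, minus strand: aatttccatcGGAAATCCCCct
Nfkbid, chr7:30422170-30422199, plus strand: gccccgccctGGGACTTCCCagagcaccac
Nfkbid, chr7:30422215-30422244, plus strand: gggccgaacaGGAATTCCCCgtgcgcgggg
Rel, chr11:23771042-23771070, minus strand: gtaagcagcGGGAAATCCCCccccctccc
Nfkb2, chr19:46304689-46304717, plus strand: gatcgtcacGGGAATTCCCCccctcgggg

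The Nfkbia match began 29 bases before the start, that nearest to a Tnfaip3 start 12 bases before it, and the first Nfkb2 match 39 bases before it. These are RefSeq starts. By GENCODE M21, all 250 bases of this Nfkb2 window and 110 bases of this Tnfaip3 window lay in exons of the same gene. Further matches at the Nfkb2 starts are not printed. Other motifs were rarer: the AP-1 motif TGANTCA, found in 6.75% of promoters, matched at 1 start each of Nfkb2 and Tnfaip3, the cAMP response motif TGACGTCA (1.55% of promoters) matched at 1 start of Nfkbid, and the CArG box (1.47% of promoters) matched in none. Letter matches of this kind describe the window and were not tested for binding.

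Levels were also put per exon length as RPKM, the CPM divided by the joined length in kilobases of all GENCODE M21 exons of a gene. This length can exceed that of the transcript present. By this measure, Rela was the highest of the 10 genes in wild-type DN3 cells at 33.0 ± 0.81 RPKM (SD, n = 3). Tnfaip3 followed at 27.7 ± 11.9 RPKM and Nfkbia at 19.8 ± 1.11 RPKM. The order rests on the lengths used, such as 12061 bases for Nfkb1 and 3072 for Rela. In wild-type CPM, Tnfaip3 was at 200 ± 86.1, Nfkb1 at 178 ± 2.83 and Rela at 101 ± 2.48. The range of Tnfaip3 overlapped those of Rela and Nfkbia. Nfkb1 (14.7 ± 0.23 RPKM) and Nfkb2 (13.8 ± 0.31 RPKM) came next and did not overlap, and Relb (0.80 ± 0.09 RPKM) and Bcl3 (0.21 ± 0.06 RPKM) were the lowest. In Lmo2Tg cells the order began with Tnfaip3 at 130 ± 18.2 RPKM and Nfkbia at 126 ± 11.8 RPKM (n = 2), which overlapped, and Rela followed at 36.4 ± 0.63 RPKM.

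Lmo2Tg was compared with wild-type to ask how the transgene changed the pathway where p21 was present. All 5 feedback genes and 3 of the 5 subunits, Nfkb1, Rel and Relb, were higher in Lmo2Tg DN3 cells, Nfkb2 was lower, and Rela did not pass the test. That is 8 genes higher and 1 lower of 10, where 19.7% of 11840 genes tested were higher, 16.9% lower and 36.6% either (edgeR's quasi-likelihood test, adjusted p under 0.05 over all genes tested). Libraries of the groups did not overlap for any of the 10, with 9 higher (29.9% of all genes) and 1 lower (31.0%). The median log2 difference was 2.27 over the feedback genes and 0.36 over the subunits, against -0.01 over all genes. Without the first Lmo2Tg library, Nfkb1, Relb and Bcl3 were no longer called and 6 genes were, 5 higher and 1 lower.

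Nfkbia was at 30.9, 33.9 and 30.7 CPM in the wild-type libraries and at 189 and 216 CPM in the Lmo2Tg libraries. Both Lmo2Tg values were thus far above the narrow wild-type range, and the difference was 6.36-fold (log2 difference 2.67, SE 0.45, edgeR adjusted p = 0.0011). Tnfaip3 was at 234, 264 and 102 CPM in wild-type and at 845 and 1031 CPM in Lmo2Tg cells. Wild-type replicate 3 was low for this gene, yet the groups did not overlap, and the difference was 4.69-fold (log2 difference 2.23, SE 0.45, edgeR adjusted p = 0.0030). Nfkbiz, which encodes the nuclear protein IκBζ, went from 17.0, 24.0 and 6.77 CPM in wild-type to 119 and 111 CPM in Lmo2Tg libraries. This 7.21-fold difference was the largest of the 10 genes (log2 difference 2.85, SE 0.41, edgeR adjusted p = 0.00043). Nfkbid (IκBNS), the most modest of the 5 in relative terms, was at 15.9, 16.2 and 10.7 CPM in wild-type and at 43.8 and 36.4 CPM in Lmo2Tg cells. Its difference was 2.81-fold (log2 difference 1.49, SE 0.22, edgeR adjusted p = 0.00047). Bcl3, whose protein is a partner of p50 and p52, rested on only 6 to 10 reads per wild-type library, or 0.368 to 0.636 CPM, and on 48 and 22 reads, or 3.55 and 1.50 CPM, in Lmo2Tg libraries. Its log2 difference of 2.27 (SE 0.51, edgeR adjusted p = 0.0061) therefore had the widest interval of the 10, 1.13 to 3.40, and it lost its call without the first Lmo2Tg library (log2 difference 1.53, edgeR adjusted p = 0.090).

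**Figure D1:**
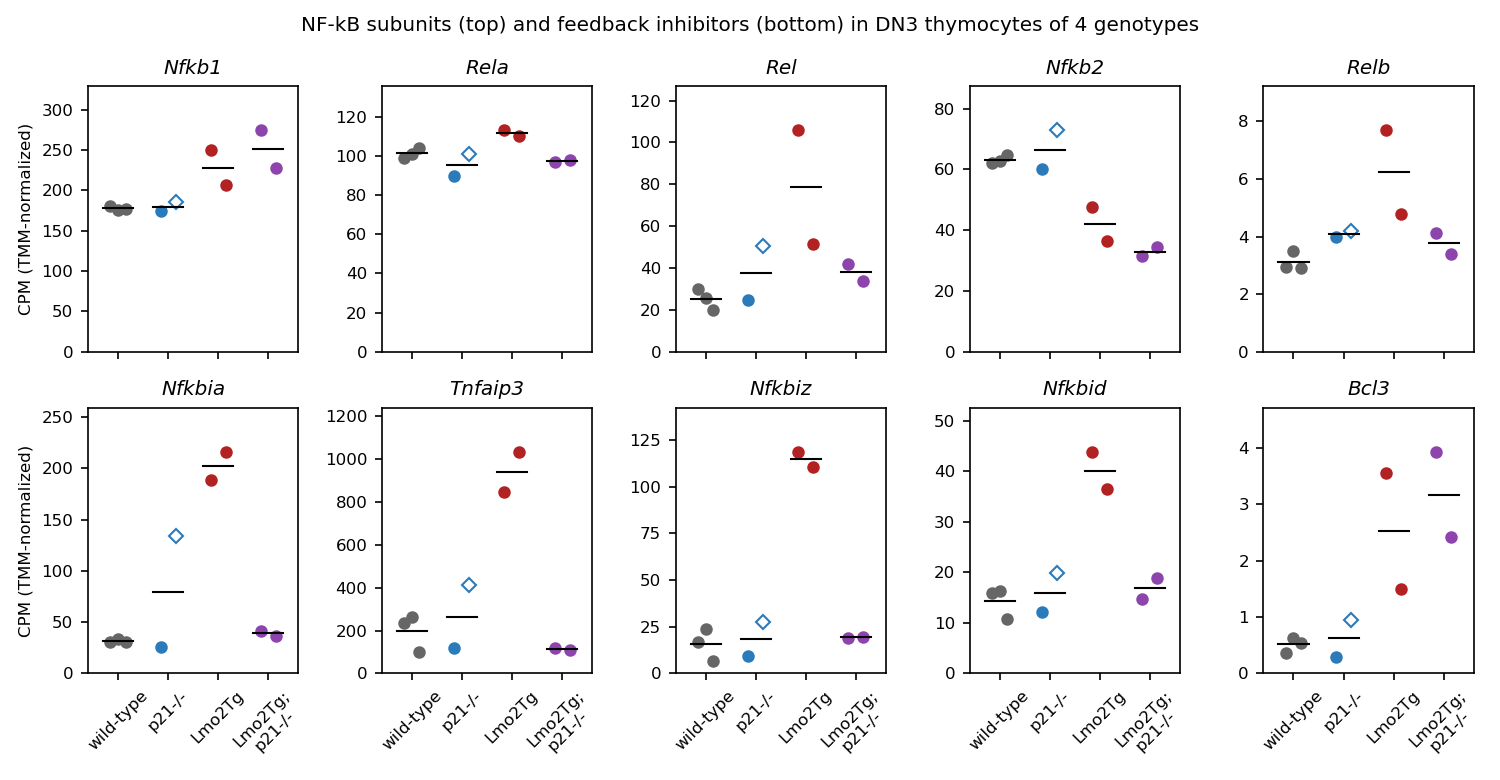
Each panel shows 1 gene, with the CPM of every library on the vertical axis (from 0) and the genotype on the horizontal axis; bars are group means and the open diamond is p21-/- replicate 2. Nfkbia, Tnfaip3, Nfkbiz and Nfkbid are highest in both Lmo2Tg libraries, for example 189 and 216 CPM of Nfkbia against 25.5 to 134 CPM in all other libraries.

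Among the subunits, Rel (c-Rel) was at 30.0, 25.9 and 19.7 CPM in wild-type and at 106 and 51.6 CPM in Lmo2Tg libraries. The pair differed from each other by more than the whole wild-type range, but both lay above it, and the difference was 3.12-fold (log2 difference 1.64, SE 0.32, edgeR adjusted p = 0.0025). Relb was at 2.94, 3.50 and 2.90 CPM in wild-type and at 7.69 and 4.79 CPM in Lmo2Tg cells (log2 difference 1.00, SE 0.23, edgeR adjusted p = 0.0073). For Nfkb1, values of 181, 176 and 177 CPM in wild-type and 249 and 206 CPM in Lmo2Tg cells gave a smaller log2 difference of 0.36 (SE 0.10, edgeR adjusted p = 0.017). Nfkb2 went the other way, from 62.0, 62.7 and 64.7 CPM in wild-type to 47.5 and 36.3 CPM in Lmo2Tg cells, and it fell by 0.59 on the log2 scale (SE 0.12, edgeR adjusted p = 0.0033). The genotype table was counted without strand, and 531 bases of Nfkb2 exons overlap a non-coding gene and 299 bases overlap Psd on the other strand, so reads from these could not be told apart. Rela was at 99.2, 101 and 104 CPM in wild-type and at 113 and 110 CPM in Lmo2Tg cells. Its libraries did not overlap, but the log2 difference of 0.14 (95% interval -0.02 to 0.30, edgeR adjusted p = 0.16) did not pass the test.

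Lmo2Tg;p21-/- was compared with Lmo2Tg to ask what p21 loss changed in transgenic cells. Nfkbia, Nfkbid, Nfkbiz and Tnfaip3 were lower in Lmo2Tg;p21-/- cells, while none of the 5 subunits and not Bcl3 passed the test. Of all genes tested, 3.59% were lower and 3.35% higher (6.94% either), against 4 and 0 of these 10. The 2 comparisons share the Lmo2Tg libraries, so high values there enter both, with opposite sign. All 4 of these genes were higher in Lmo2Tg than wild-type and lower in Lmo2Tg;p21-/- than Lmo2Tg, as were 292 of 11840 genes (2.47%).

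Tnfaip3 was at 116 and 109 CPM in the Lmo2Tg;p21-/- libraries, against 845 and 1031 CPM in Lmo2Tg. This 8.32-fold difference was the largest of the 10 (it fell by 3.06 on the log2 scale, SE 0.53, edgeR adjusted p = 0.0099). Both Lmo2Tg;p21-/- values lay above only wild-type replicate 3, at 102 CPM. They were below wild-type replicates 1 and 2, at 234 and 264 CPM. Nfkbiz was at 18.9 and 19.7 CPM in Lmo2Tg;p21-/- cells, inside the wild-type range, and it fell by 2.57 on the log2 scale (SE 0.47, edgeR adjusted p = 0.013). Nfkbia fell from 189 and 216 CPM to 41.4 and 36.8 CPM (log2 difference -2.37, SE 0.52, edgeR adjusted p = 0.025), which remained above all 3 wild-type values. Nfkbid was at 14.8 and 18.9 CPM in Lmo2Tg;p21-/- cells (log2 difference -1.25, SE 0.25, edgeR adjusted p = 0.017). For Bcl3, at 3.93 and 2.42 CPM in Lmo2Tg;p21-/- and 3.55 and 1.50 CPM in Lmo2Tg libraries, the groups overlapped (log2 difference 0.33, 95% interval -0.69 to 1.34). Without the first Lmo2Tg;p21-/- library, none of the 4 genes kept its call and 0 of 10 genes passed the test (6 at an unadjusted p under 0.05), although the log2 differences, -2.47 for Nfkbia, -1.10 for Nfkbid, -2.56 for Nfkbiz and -3.12 for Tnfaip3, barely moved. Without the second, Nfkbid alone passed. The call of Nfkbid was lost without the first Lmo2Tg library (edgeR adjusted p = 0.057) and that of Nfkbia without the second (edgeR adjusted p = 0.083, with Rel then called).

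The subunits had the same sign in this comparison for 4 of 5 genes. Rel was at 42.0 and 33.8 CPM in Lmo2Tg;p21-/- cells, below both Lmo2Tg libraries, with a log2 difference of -1.06 (SE 0.35, edgeR adjusted p = 0.097). Relb was at 4.14 and 3.38 CPM (log2 difference -0.73, SE 0.26, edgeR adjusted p = 0.11), Nfkb2 at 31.6 and 34.3 CPM (log2 difference -0.34, edgeR adjusted p = 0.14) and Rela at 96.7 and 97.9 CPM (log2 difference -0.20, edgeR adjusted p = 0.15). Nfkb1, at 274 and 228 CPM, had a log2 difference of 0.14 (95% interval -0.11 to 0.38). In all, 8 of the 10 genes had Lmo2Tg;p21-/- libraries below Lmo2Tg libraries with no overlap, as did 25.7% of all genes tested.

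**Figure D2:**
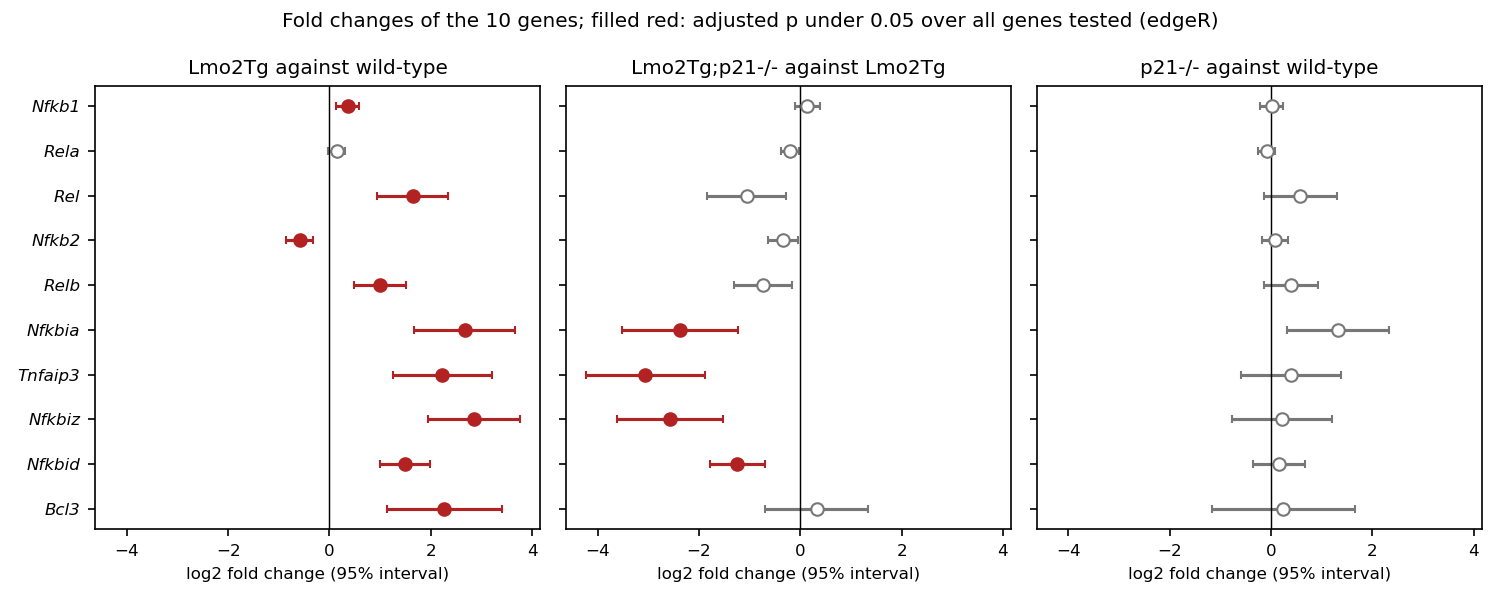
Points are log2 fold changes of the 10 genes (vertical axis) in 3 comparisons with their 95% intervals, filled red where the edgeR adjusted p over all genes tested was under 0.05. Intervals of Nfkbia, Tnfaip3, Nfkbiz and Nfkbid lie above 0 for Lmo2Tg against wild-type and below 0 for Lmo2Tg;p21-/- against Lmo2Tg, and no gene is filled for p21-/- against wild-type.

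Without the transgene, 0 of the 10 genes differed by the edgeR test between p21-/- and wild-type cells, where 0.110% of all genes tested were called, and 1 gene, Nfkbia, had an unadjusted p under 0.05 (3.30% of all genes). DESeq2 and limma-voom also called 0. The 2 p21-/- libraries differed strongly. Nfkbia was at 25.5 CPM in replicate 1, the lowest of all 9 genotype libraries, and at 134 CPM in replicate 2, the third highest. Tnfaip3 was likewise at 117 and 411 CPM, Nfkbiz at 9.61 and 27.3 CPM, Nfkbid at 12.1 and 19.9 CPM and Rel at 24.7 and 50.5 CPM. Replicate 2 lay above every wild-type library for 9 of the 10 genes, as it did for 28.0% of all genes tested, and replicate 1 for 1 of 10, against 22.8% of all genes. The log2 difference of Nfkbia was 1.32 (SE 0.46, edgeR adjusted p = 0.98) over both libraries, -0.32 (edgeR adjusted p = 1) without replicate 2 and 2.07 (edgeR adjusted p = 1.3e-05) without replicate 1.

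The interaction tested whether the effect of p21 loss differed with the transgene. Nfkbia, with a log2 effect of p21 loss of 1.32 without and -2.37 with the transgene, had a difference of -3.70 (SE 0.69, edgeR adjusted p = 0.034). For Tnfaip3 the effects were 0.40 and -3.06, and the difference was -3.46 (SE 0.68, edgeR adjusted p = 0.037). These were 2 of the 10 genes, both lower, as were 1.10% of all genes tested (1.38% either way). Rel (-1.63, edgeR adjusted p = 0.12), Nfkbid (-1.41, edgeR adjusted p = 0.073) and Nfkbiz (-2.78, edgeR adjusted p = 0.067) had the same sign and did not pass. Both calls were fragile: leaving out any single library but p21-/- replicate 1 or 2 ended both (edgeR adjusted p from 0.055 to 0.17), and without p21-/- replicate 2 only Nfkbia passed, at -2.05 (edgeR adjusted p = 0.0020), against -2.28 for Tnfaip3 (edgeR adjusted p = 0.14). Without p21-/- replicate 1, which left 1 p21-/- library, the differences were -2.06 for Rel, -1.72 for Nfkbid and -3.35 for Nfkbiz.

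Lmo2Tg;p21-/- was also set against p21-/-, the transgene's effect where p21 was absent. Nfkb1 (log2 difference 0.48, SE 0.11, edgeR adjusted p = 0.0078) and Bcl3 (log2 difference 2.35, SE 0.55, edgeR adjusted p = 0.0084) were higher, and Nfkb2 fell by 1.01 on the log2 scale (SE 0.13, edgeR adjusted p = 0.00023). These 3 of 10 compare with 30.7% of all genes tested, of which 16.3% were higher and 14.4% lower. Without the first Lmo2Tg;p21-/- library, Nfkb2 alone was called (Nfkb1 at an edgeR adjusted p of 0.097 and Bcl3 of 0.069), and without p21-/- replicate 1 Nfkb1 and Bcl3 were not called while Nfkbia and Tnfaip3 were lower. Nfkbia, Nfkbid, Nfkbiz and Tnfaip3 did not pass in the fit of all libraries. Their differences were -1.03, 0.08, 0.07 and -1.23 on the log2 scale, and for Nfkbia the sign turned on 1 library: without p21-/- replicate 2, it was 0.61 higher in Lmo2Tg;p21-/- cells (edgeR adjusted p = 0.012). The difference of Tnfaip3 also rested on that library, and was -0.0575 without it (edgeR adjusted p = 0.94). Side by side over all libraries, the transgene's log2 difference was 2.67 for Nfkbia with p21 and -1.03 without, 2.23 and -1.23 for Tnfaip3, 2.27 and 2.35 for Bcl3, 0.36 and 0.48 for Nfkb1 and -0.59 and -1.01 for Nfkb2.

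The immediate-early genes, which many stimuli and also tissue handling and cell dissociation are known to induce within minutes, moved with the feedback genes. Of 27 tested from a list of 28, 16 were higher and 0 lower in Lmo2Tg than wild-type (median log2 difference 2.14), and 13 were lower and 0 higher in Lmo2Tg;p21-/- than Lmo2Tg (median -1.90). Their summed level was 3411 and 4842 CPM in the Lmo2Tg libraries, 683 to 2096 CPM in wild-type, 1210 and 1800 CPM in p21-/- and 1325 and 1677 CPM in Lmo2Tg;p21-/- libraries. Nr4a1, an orphan nuclear receptor induced by antigen-receptor signals, was at 392 and 339 CPM in Lmo2Tg cells and at 19.3 to 64.8 CPM in the other 7 libraries. In the interaction 7 of 27 were lower, and in p21-/- against wild-type 0 of 27 passed in edgeR (3 at an unadjusted p under 0.05). Wild-type replicate 3, with the lowest values of Tnfaip3, Nfkbiz and Nfkbid, also had the lowest sum. The third highest sum was that of wild-type replicate 2, at 33.9 CPM of Nfkbia. In p21-/- replicate 2, Nfkbia, Nfkbid, Nfkbiz and Tnfaip3 were the third highest and the sum the fourth highest. That library was above p21-/- replicate 1 for 22 of the 27 genes tested (81.5%, against 49.8% of all genes). It was above every wild-type library for 40.7% of them (28.0% of all genes). The part of these genes in the differences of Nfkbia, Tnfaip3, Nfkbiz and Nfkbid was not tested.

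**Figure D3:**
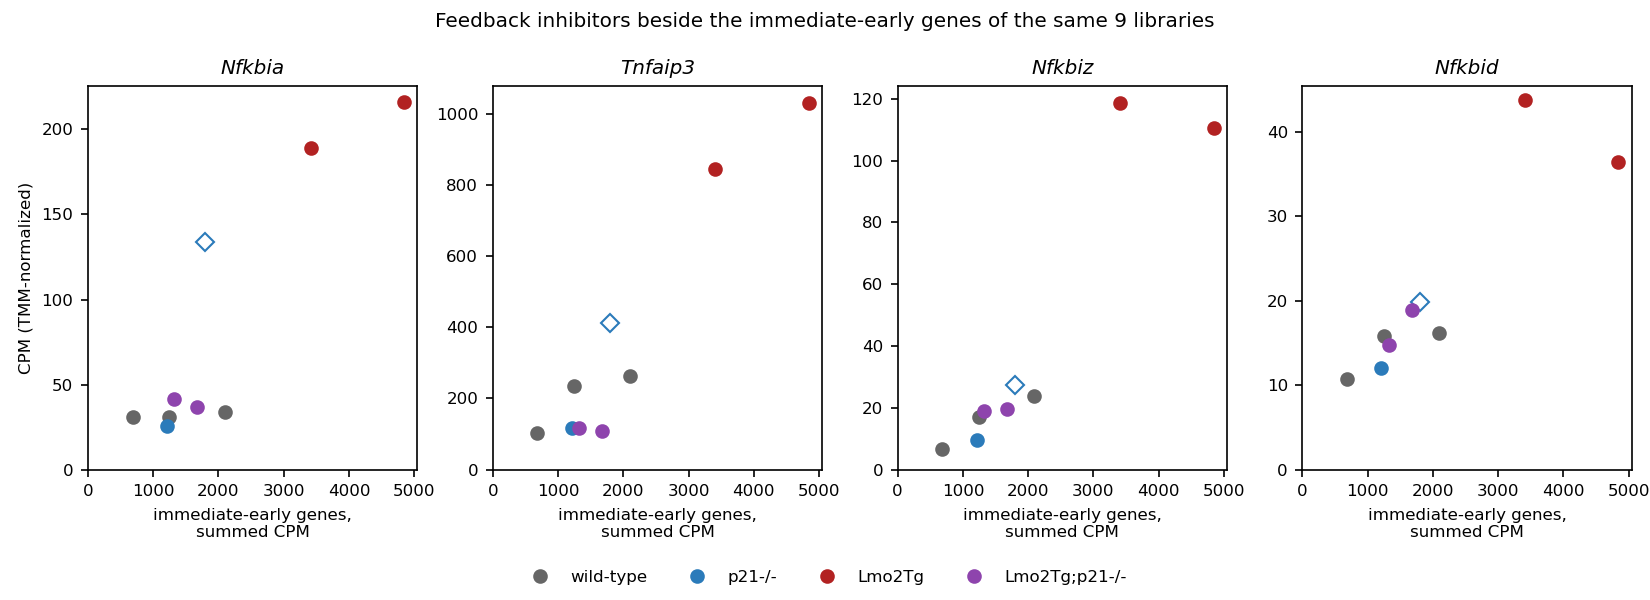
Each panel plots the CPM of 1 feedback gene (vertical axis) against the summed CPM of 28 immediate-early genes (horizontal axis) in the 9 genotype libraries, coloured by genotype; the open diamond is p21-/- replicate 2. Both Lmo2Tg libraries, at 3411 and 4842 summed CPM, lie to the upper right of all others.

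The gene with the profile most like the mean of the 10 over the 9 genotype libraries was Zbtb10 (Pearson r = 0.990 among 11025 genes searched), followed by Slc30a1, Cpeb2, Wsb1 and Fbxo33 (r = 0.986, 0.985, 0.985 and 0.983). These libraries share groups, so the values only describe likeness.

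Other genes of the pathway were taken from lists. Over all genes tested, 19.7% were higher and 16.9% lower in Lmo2Tg than wild-type. In Lmo2Tg;p21-/- against Lmo2Tg, 3.35% were higher and 3.59% lower. Of 32 genes for IKK subunits, adaptors and upstream kinases, 17 were higher and 2 lower in Lmo2Tg than wild-type. Birc3 (cIAP2, a ubiquitin ligase of receptor complexes) rose from 20.8 ± 1.27 CPM (SD, n = 3) to 41.0 ± 5.74 CPM (n = 2), and Traf1, an adaptor and a known target of NF-κB, fell by 2.54 on the log2 scale, from 14.7 ± 0.56 to 2.54 ± 0.79 CPM (edgeR adjusted p = 1.5e-05). Of 16 other inhibitors, 5 were higher and 1 lower. Zc3h12a (Regnase-1, an RNase that degrades inflammatory transcripts) was at 19.1 ± 1.07 CPM in wild-type, 56.9 ± 22.4 CPM in Lmo2Tg and 15.8 ± 0.94 CPM in Lmo2Tg;p21-/- cells and passed in both comparisons and in the interaction (-2.07, edgeR adjusted p = 0.037). Nfkbie (IκBε), by contrast, fell from 103 ± 12.1 to 42.8 ± 9.81 CPM with the transgene (edgeR adjusted p = 0.00012). Among receptors and ligands, 3 of 18 tested were higher, Tnf, Il1r1 and Cd27, and 6 lower, among them Ltbr, the lymphotoxin β receptor of the non-canonical branch (-1.60, edgeR adjusted p = 0.00025).

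Of 40 listed target genes of NF-κB, 28 were tested, 16 were higher and 3 lower in Lmo2Tg than wild-type (median log2 difference 0.80, against -0.01 over all genes). Ier3, an early response gene of cell survival, was at 2.04 ± 1.36 CPM in wild-type and 23.0 ± 2.78 CPM in Lmo2Tg cells, and the chemokine Cxcl10 was at 0 to 0.184 CPM and 3.83 to 4.22 CPM. In Lmo2Tg;p21-/- against Lmo2Tg cells, 7 were lower and 1 higher. Cxcl10, the activation marker Cd69 (18.2 ± 1.41 against 129 ± 33.8 CPM) and Ccl4 were lower, and the chemokine receptor Ccr7 (3.70 ± 0.49 against 1.57 ± 0.29 CPM) was higher. Of the other lists in this comparison, 2 of 32 IKK and adaptor genes were lower, Bcl10 and Traf6, 1 of 16 other inhibitors was lower and 1 higher, and 1 of 18 receptors and ligands was lower and 1 higher. Ccr7 was also among the 3 targets lower in Lmo2Tg than wild-type (log2 difference -1.02, edgeR adjusted p = 0.015). In the interaction, 4 of the 28 target genes were lower and 1, Ccr7, was higher. In p21-/- against wild-type cells, 0 genes of these 4 lists passed in edgeR, and 2 of 32 IKK, adaptor and kinase genes, 0 of 16 other inhibitors, 1 of 18 receptors and ligands and 3 of 28 targets had an unadjusted p under 0.05.

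**Figure D4:**
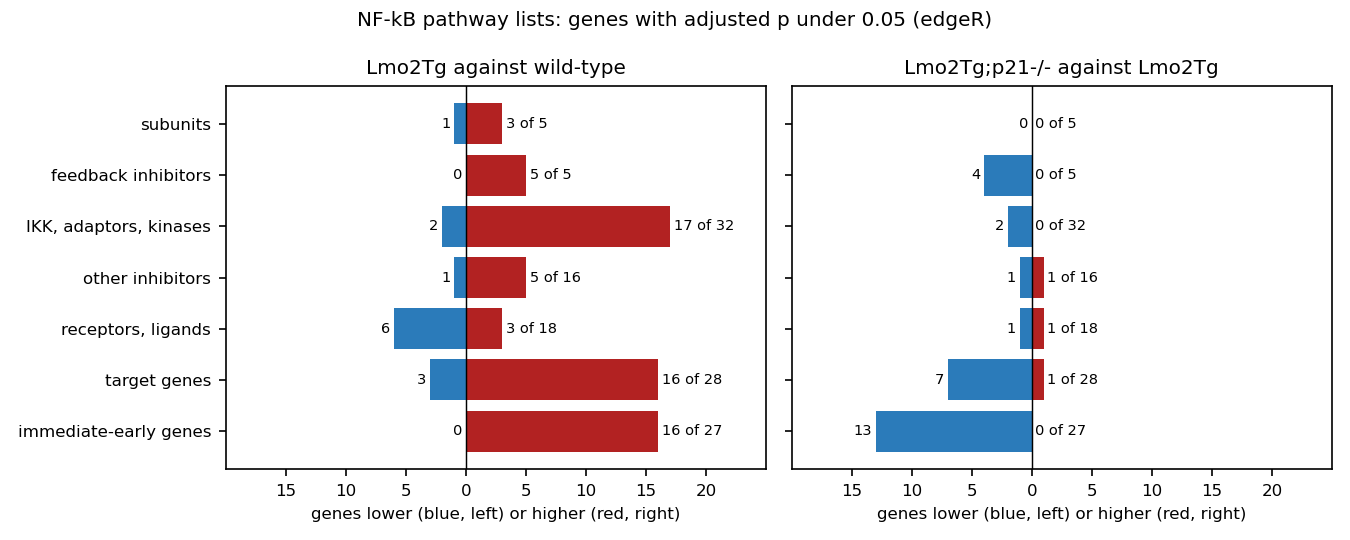
Bars count genes of each list that were lower (blue, left) or higher (red, right) at an edgeR adjusted p under 0.05, with the number tested written at the right. Target genes were higher for 16 of 28 with the transgene, and immediate-early genes were lower for 13 of 27 in Lmo2Tg;p21-/- against Lmo2Tg cells.

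Markers of cell identity also differed with the transgene: 10 of 16 DN3 markers were lower and 2 higher in Lmo2Tg than wild-type, Rag2 (recombinase) falling by 2.33 on the log2 scale, and the summed level was 10136 to 11399 CPM against 13039 to 13703 CPM. In bulk samples, fewer cells of a type and less RNA per cell cannot be told apart. Summed B-lineage markers were at 60.6 to 61.1 CPM in Lmo2Tg and 84.0 to 95.8 CPM in wild-type, myeloid and dendritic markers at 28.3 to 33.1 and 18.1 to 26.9 CPM, NK and gamma-delta markers at 304 to 465 and 225 to 231 CPM, and later T-cell markers at 782 to 795 and 657 to 692 CPM. Of those tested, 1 of 9, 4 of 11, 3 of 8 and 5 of 10 were higher and 2, 1, 2 and 2 lower.

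Markers differed in Lmo2Tg;p21-/- against Lmo2Tg cells as well. The sums did not overlap for myeloid and dendritic markers (33.7 to 46.3 against 28.3 to 33.1 CPM), NK and gamma-delta markers (469 to 838 against 304 to 465 CPM) and later T-cell markers (817 to 829 against 782 to 795 CPM), all higher in Lmo2Tg;p21-/- libraries. They overlapped for B-lineage markers (59.6 to 78.0 against 60.6 to 61.1 CPM) and DN3 markers (10248 to 10594 against 10136 to 11399 CPM). With 2 libraries per group, lack of overlap was common, and 25.7% of all genes tested were lower in this way. Gaps between the groups were narrow for the myeloid and dendritic sum and for the NK and gamma-delta sum. Cd163l1, 1 gene of the NK and gamma-delta list, was alone at 335 ± 242 CPM in Lmo2Tg;p21-/- libraries. Of single markers, Lyz2, the lysozyme of myeloid cells, was higher (15.5 ± 3.50 against 5.96 ± 0.27 CPM, n = 2 each, edgeR adjusted p = 0.0031), the only one of 11 myeloid and dendritic markers called, and 0 of 9 B-lineage, 0 of 8 NK and gamma-delta and 0 of 10 later T-cell markers passed in edgeR (1, 2 and 2 at an unadjusted p under 0.05). Of 16 DN3 markers, Rag2 was higher (log2 difference 1.11, edgeR adjusted p = 0.015) and Hes1, a target of Notch signals, was lower (log2 difference -1.55, edgeR adjusted p = 0.026). Their part in the differences was not tested.

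GFPhi was compared with GFPlo to ask how the genes differed between cells that had divided less or more in mice of 1 genotype. With all libraries, Nfkb2 and Nfkbiz were higher in GFPhi cells and none lower, 2 of 10, where 14.9% of 11581 genes tested were called either way (5.37% higher and 9.49% lower). Nfkb2 was at 42.9, 41.2 and 45.3 CPM in GFPhi and at 32.9, 32.9 and 31.5 CPM in GFPlo libraries, with no overlap (log2 difference 0.41, SE 0.07, edgeR adjusted p = 0.016). Nfkbiz was at 31.1, 31.7 and 37.1 CPM against 23.2, 16.1 and 14.0 CPM (log2 difference 0.91, SE 0.20, edgeR adjusted p = 0.036). Both calls were lost without certain single libraries: Nfkb2 was not called without GFPhi replicate 1 or without GFPlo replicate 1, 2 or 3, nor Nfkbiz without GFPhi replicate 1 or 2 or GFPlo replicate 2 or 3, while the log2 differences stayed at 0.38 to 0.44 and 0.76 to 1.15. With the replicate number as a block neither passed (edgeR adjusted p = 0.082 for Nfkb2 and 0.099 for Nfkbiz).

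Without GFPhi replicate 3, 6 genes were higher (Nfkb1, Nfkb2, Rela, Relb, Nfkbiz and Bcl3) and Nfkbia lower, 7 of 10 against 41.3% of 11745 genes tested (19.5% higher, 21.7% lower). Relb was at 9.26 and 8.98 CPM in the first pair of GFPhi libraries and at 4.02 CPM in replicate 3, inside the range of 2.32 to 4.48 CPM of GFPlo cells. Its log2 difference was 1.55 (SE 0.27, edgeR adjusted p = 0.0048) without replicate 3 and 1.24 (SE 0.41, edgeR adjusted p = 0.093) with it. Bcl3 was arranged alike, at 6.14 and 6.48 CPM, then 2.38 CPM in replicate 3, against 2.64 to 3.85 CPM in GFPlo cells (log2 difference 0.92, SE 0.19, edgeR adjusted p = 0.0098 without replicate 3). Nfkb1, at 390, 359 and 409 CPM against 344, 319 and 298 CPM, and Rela, at 113, 109 and 123 CPM against 103, 96.8 and 91.0 CPM, did not overlap between groups, but their log2 differences were only 0.27 and 0.24 (edgeR adjusted p = 0.074 for each over all libraries).

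The classical inhibitor gene Nfkbia was slightly lower in GFPhi cells, at 48.5, 48.3 and 47.9 CPM against 59.9, 54.8 and 55.2 CPM (log2 difference -0.23, SE 0.06, edgeR adjusted p = 0.053). It passed without GFPhi replicate 3 (log2 difference -0.22, edgeR adjusted p = 0.030). Tnfaip3 was at 148, 125 and 200 CPM in GFPhi and 157, 132 and 124 CPM in GFPlo cells and overlapped, with a log2 difference of 0.19 (95% interval -0.26 to 0.65), and Nfkbid (0.07, -0.22 to 0.36) and Rel (-0.05, -0.32 to 0.22) overlapped as well. GFPhi libraries lay above GFPlo libraries with no overlap for 4 of 10 genes (19.6% of all genes) and below for 1 (21.7%).

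**Figure D5:**
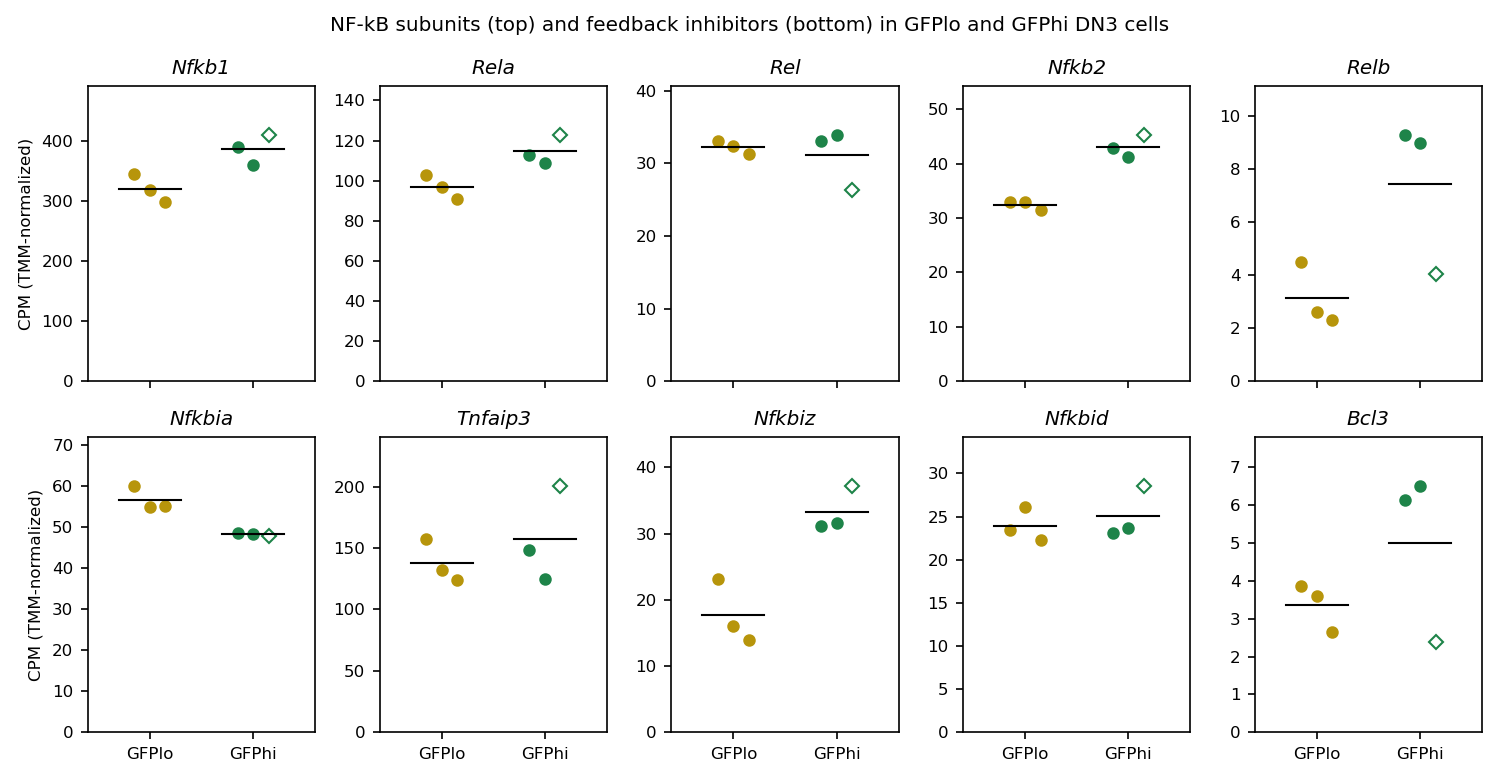
CPM of the 10 genes in each GFPlo and GFPhi library (vertical axes from 0, bars are means); the open diamond is GFPhi replicate 3. Nfkb2 and Nfkbiz do not overlap between the groups, and for Relb and Bcl3 replicate 3 lies with the GFPlo libraries, at 4.02 and 2.38 CPM.

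Of the pathway lists, 6 of 25 tested target genes were higher and 1, Slfn2, lower in GFPhi cells. The largest rise was in Cd74, which the study counts under antigen presentation, at 29.1 ± 24.5 against 0.378 ± 0.071 CPM. Irf4 (3.65 ± 1.82 against 1.06 ± 0.34 CPM) and Cd69 (33.0 ± 4.40 against 16.4 ± 4.17 CPM) followed. Markers of B-lineage cells were also higher, as given below, and their part in these counts was not tested. Of 32 IKK, adaptor and kinase genes, 3 were higher (Traf1, Malt1 and Traf3) and 1 lower (Tab1). Malt1, the protease of the antigen-receptor route to IKK, was at 37.2 ± 2.27 CPM (n = 3) against 25.4 ± 2.10 CPM (n = 3). Of 19 receptors and ligands, 2 were higher, Tnfrsf9 and Lta, and 1 lower, and 0 of 16 other inhibitors passed in edgeR (3 at an unadjusted p under 0.05). Without GFPhi replicate 3, these lists had 7 higher and 6 lower, 8 and 3, 6 and 3 (of 20), and 1 and 2. Over all genes tested, 14.9% were called with all libraries (5.37% higher, 9.49% lower). Without replicate 3 the share was 41.3% (19.5% higher, 21.7% lower). Of 24 immediate-early genes tested 4 were higher and 2 lower, or 10 and 3 without replicate 3, and their sums were 1326 to 1680 CPM in GFPhi and 1099 to 1306 CPM in GFPlo libraries.

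Markers of other cells differed in the same comparison. Summed B-lineage markers were at 118, 160 and 68.1 CPM in GFPhi and 68.2 to 74.2 CPM in GFPlo libraries, and 8 of 13 tested were higher. Some of these, such as Ms4a1, Cd22 and Pax5, were at 0.0107, 0.0562 and 0.0555 CPM in GFPlo libraries. They passed the filter on low counts only through GFPhi libraries and so could only be called higher. NK and gamma-delta markers summed to 2225, 2019 and 1026 CPM in GFPhi and 499 to 774 CPM in GFPlo libraries, and 2 of 8 were higher. Most of this sum in GFPhi replicates 1 and 2 came from 1 gene, Cd163l1, at 1525 ± 36.8 CPM there. In GFPlo libraries Cd163l1 was at 231 ± 83.1 CPM. Myeloid and dendritic markers were at 9.55 to 15.4 CPM and 12.6 to 13.5 CPM, with 1 of 6 higher, later T-cell markers at 911 to 1186 and 999 to 1036 CPM, with 1 of 10 higher, and DN3 markers at 13874 to 14336 and 12150 to 13042 CPM, with 1 of 16 higher. Relb and Bcl3 were highest in GFPhi replicates 1 and 2, which had both the highest B-lineage sums and the highest NK and gamma-delta sums. The part of these markers in the results was not tested.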

How the data were processed

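Both experiments were available as raw read counts by gene, deposited as 1 table each with no scaling. The submitters' processing notes name STAR 2.4.2a, featureCounts, limma and mm10, and the tables' own names say that the GFP table was counted on the reverse strand and the genotype table without strand. Groups came from the labels and from column names. The Lmo2Tg columns were assigned to their group only, by their table, because their names also match the descriptions of GFPlo samples. Of the other columns, 1 was not used because no label matches it, and p21-/- replicate 3 was not analysed here. Counts were filtered with filterByExpr (minimum count 10, minimum total 15), TMM-normalized and tested with edgeR 4.0.16 (quasi-likelihood, R 4.3.3), the genotypes in 1 fit of 9 libraries and GFP in another of 6, with Benjamini-Hochberg adjustment over all genes tested and calls at an adjusted p under 0.05. A count of 3 reads is worth 0.0964 to 0.112 CPM in the GFP libraries and 0.178 to 0.216 CPM in the genotype libraries. Alternatives tried were DESeq2 1.42.0, voom in limma 3.58.1, scaling by RLE, no filter, the study's thresholds (over 2-fold and FDR 0.01 for GFP or 0.05 for genotypes; the study also gives FDR 0.01 for Lmo2Tg;p21-/- against Lmo2Tg, added as an alternative after seeing the data), fits of the compared groups only, a replicate block, and each library left out. All 10 genes are named, and of each other list up to 3 genes per direction with the largest called change and at least 1 CPM, besides Cdkn1a and Lmo2. The 5 genes of like pattern have the highest Pearson r with the members' mean z-score. Members, lists and tests were chosen with earlier results of these data known. Exon lengths came from GENCODE M21, to which 98.6% of 22114 identifiers matched, and promoters from RefSeq (GRCm38.p6). Scripts were tested on simulated data.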

Additional observations from a re-analysis of the deposited data

Results flagged for a closer look

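The effect of p21 loss differed with the Lmo2 transgene for Nfkbia, by -3.70 on the log2 scale (SE 0.69, edgeR adjusted p = 0.034), and for Tnfaip3, by -3.46 (SE 0.68, edgeR adjusted p = 0.037), in the test of the interaction itself. Both calls were lost in limma-voom (adjusted p = 0.072 for Nfkbia and 0.060 for Tnfaip3) and in edgeR without any 1 of the 7 libraries outside the p21-/- group. Without p21-/- replicate 2, the difference was -2.05 for Nfkbia, which passed, and -2.28 for Tnfaip3, which did not (edgeR adjusted p = 0.0020 and 0.14). In p21-/- libraries, replicate 2 was above and replicate 1 below or within the wild-type range for both genes. Each Lmo2Tg;p21-/- library was below each Lmo2Tg library for both genes.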

How the results depend on the processing

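In Lmo2Tg against wild-type, 6 to 9 of the 10 genes were called whatever the setting. Leaving out 1 library gave 0 to 7 genes in GFPhi against GFPlo, 0 to 1 in p21-/- against wild-type, 0 to 4 in Lmo2Tg;p21-/- against Lmo2Tg, 1 to 4 in Lmo2Tg;p21-/- against p21-/- and 0 to 5 in the interaction. In GFPhi against GFPlo, 0 genes were called at the study's thresholds, 6 in DESeq2 and 0 with the replicate block. Same-numbered GFP libraries had correlations of 0.119, -0.105 and 0.0795. GFPhi replicates 1 and 3 correlated best with their own number, replicate 3 narrowly (0.0739 with GFPlo replicate 2), and GFPhi replicate 2 with another. With 3 libraries per group, such values cannot decide whether the numbers are pairs. The main fit took none. In the interaction, limma-voom called 0 and the fit with no filter 5, and with no filter Lmo2Tg;p21-/- against p21-/- gave 5. With the replicate block in p21-/- against wild-type, 0 genes were called and 3 log2 differences turned negative (Nfkbid -0.0426, Nfkbiz -0.28 and Tnfaip3 -0.15). At over 2-fold and FDR 0.01, added after seeing the data, Lmo2Tg;p21-/- against Lmo2Tg called 1 gene, Tnfaip3, and 97 of all genes. The cause was not tested.

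Over all genes, GFPhi against GFPlo called 1721, or 261 at the study's thresholds, 2913 in DESeq2, 496 with the block and 273 to 4848 with 1 library left out. At the study's thresholds Lmo2Tg against wild-type called 1420 in place of 4329, Lmo2Tg;p21-/- against Lmo2Tg 222 in place of 822 and Lmo2Tg;p21-/- against p21-/- 1230 in place of 3639. Fits of only the compared groups called 404 in Lmo2Tg;p21-/- against Lmo2Tg, and leaving out 1 library 60 to 1128, 2815 to 4248 in Lmo2Tg against wild-type and 1914 to 4251 in Lmo2Tg;p21-/- against p21-/-. In p21-/- against wild-type 13 were called, or 20 in DESeq2, 21 with no filter and 8 to 18 with 1 library left out, and in the interaction 163, or 95, 459 and 520 under the study's thresholds, DESeq2 and no filter and 0 to 449 with 1 library left out.

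Single log2 differences that changed sign when 1 library was left out ranged, in p21-/- against wild-type, from -0.0323 to 0.0554 (Nfkb1), -0.0737 to 0.20 (Nfkb2), -0.0262 to 1.00 (Rel), -0.32 to 2.07 (Nfkbia), -0.24 to 0.47 (Nfkbid), -0.72 to 0.78 (Nfkbiz), -0.80 to 0.87 (Bcl3) and -0.77 to 1.03 (Tnfaip3). In Lmo2Tg;p21-/- against p21-/- they ranged from -0.42 to 0.61 (Rel), -0.0528 to 0.11 (Rela), -0.28 to 0.0119 (Relb), -1.78 to 0.61 (Nfkbia), -0.23 to 0.48 (Nfkbid) and -0.50 to 1.00 (Nfkbiz), and Tnfaip3 kept its sign over -1.86 to -0.0575. In Lmo2Tg;p21-/- against Lmo2Tg the ranges were -0.0151 to 0.27 (Nfkb1) and -0.17 to 1.05 (Bcl3), in the interaction -0.0303 to 0.26 (Nfkb1) and -0.54 to 1.12 (Bcl3), and in GFPhi against GFPlo -0.12 to 0.0617 (Rel), -0.0282 to 0.14 (Nfkbid) and -0.0083 to 0.34 (Tnfaip3). Where 1 library was left in a group, it was assumed to vary like the others. Depth limited Bcl3 most, with 5 to 15 reads in the non-transgenic libraries.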
